A study of Mus musculus with 2 samples.

Results

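The genes described here are 10 CC chemokines, Ccl2, Ccl3, Ccl4, Ccl5, Ccl6, Ccl7, Ccl9, Ccl11, Ccl17 and Ccl22, in single-cell RNA sequencing (scRNA-Seq) of mouse lung. They were taken by gene symbol from the 32285 genes of the count files, and each symbol matched 1 gene. Transcripts were counted by their unique molecular identifiers (UMIs), which let PCR copies of a molecule count as 1. There were 2 libraries of lung cells, labelled FF and KO, 1 per genotype. The first was from Cebpa fl/fl mice, which carry Cebpa alleles flanked by loxP sites and no Cre, and the second from Cebpa ΔSftpc mice, which have the same alleles and Sftpc-CreERT2. This Cre is driven by the promoter of Sftpc, a surfactant gene of alveolar type 2 (AT2) epithelial cells, and acts after tamoxifen, so that the deletion is directed at AT2 cells and not at the immune cells, fibroblasts and endothelial cells that hold most of the chemokine counts. Deletion was induced with 5 daily injections of 75 mg tamoxifen per kg, with a further weekly round in experiments as long as this, and lungs of both genotypes were taken 26 weeks after the first injection. The mice were of mixed genetic background and usually 3 months old at the start, and the 3 mice of a genotype are in 1 library whose barcodes do not show the mouse. With 1 library per genotype no difference between genotypes has a replicate check, and no test between them was made.

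CC chemokines are small secreted proteins with a pair of adjacent cysteines that attract leukocytes through G protein-coupled receptors. Ccl2 and Ccl7 draw Ccr2+ monocytes out of the blood, Ccl3 and Ccl5 act on Ccr1, Ccl4 attracts monocytes and lymphocytes, Ccl11 (eotaxin) attracts eosinophils through Ccr3, and Ccl17 and Ccl22 attract T cells through Ccr4. Ccl6 and Ccl9 are rodent chemokines of myeloid cells that act on Ccr1. In the lung, macrophages, monocytes, granulocytes, dendritic cells (DC), lymphocytes and fibroblasts are all known sources.

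In GRCm38, 8 of the 10 genes lie on chromosome 11 and the other two on chromosome 8. Ccl2 (chr11:82035571-82037453, + strand), Ccl7 (chr11:82045712-82047525, +) and Ccl11 (chr11:82057823-82062955, +) follow each other within 22.3 kb between the first and the last start. Ccl5 (chr11:83525778-83530518, −), Ccl9 (chr11:83572919-83578636, −), Ccl6 (chr11:83587882-83593087, −), Ccl3 (chr11:83647844-83649355, −) and Ccl4 (chr11:83662584-83664683, +) form a second group. Ccl22 (chr8:94745590-94751699, +) and Ccl17 (chr8:94810453-94812036, +) start 64.9 kb apart. RefSeq promoter windows for GRCm38.p6, each with 250 bases before and 50 bases from the start of the transcript, were at hand for 5 of the 10 genes (Ccl3, Ccl6, Ccl9, Ccl17 and Ccl22). Among the 10 pairs of these windows, Ccl6 and Ccl9 had by far the longest local alignment, 59 identical bases of 74 aligned columns (79.7%), whereas no other pair aligned over more than 20 columns. Both windows are shown because these neighbouring genes were found in the same myeloid gates, as given below, with capitals for the bases identical in the aligned stretch.
Ccl6 (chr11:83593038-83593337, − strand): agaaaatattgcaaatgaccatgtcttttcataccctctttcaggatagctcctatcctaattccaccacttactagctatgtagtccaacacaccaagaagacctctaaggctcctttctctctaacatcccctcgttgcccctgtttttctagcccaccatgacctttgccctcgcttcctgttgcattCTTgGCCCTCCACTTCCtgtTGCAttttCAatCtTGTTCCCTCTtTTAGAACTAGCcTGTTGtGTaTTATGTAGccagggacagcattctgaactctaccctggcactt
Ccl9 (chr11:83578587-83578886, − strand): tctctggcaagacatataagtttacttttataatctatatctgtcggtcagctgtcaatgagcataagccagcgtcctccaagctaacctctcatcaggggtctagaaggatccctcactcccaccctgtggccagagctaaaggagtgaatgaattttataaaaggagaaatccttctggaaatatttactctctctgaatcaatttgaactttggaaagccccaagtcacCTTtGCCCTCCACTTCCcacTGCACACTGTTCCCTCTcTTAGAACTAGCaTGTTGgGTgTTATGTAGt
The stretch ran from 59 bases before the annotated start of Ccl6 to 15 bases into its transcript, and from 18 bases before that of Ccl9 to 49 bases into its transcript. Searched on both strands, the letters GGAAGTG, a form of the core bound by ETS factors, were in both windows inside the aligned stretch, and also in that of Ccl22; 11% of all 32851 windows hold them. TATAAA was in the window of Ccl9 only (13.6% of all windows), and GATAA in that of Ccl17 only (25.4%). TGANTCA, a pattern that covers the AP-1 site and reads alike on either strand, was in the window of Ccl9 only (7.81%). The match there reads TGAATCA, with an A where the AP-1 site has C or G. TTGCNNAA, which covers the core bound by C/EBP factors, was in none of the 5 windows and in 10.8% of all. A match is a description of the letters and does not show a binding site.

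After barcodes under 200 genes or over 20% mitochondrial counts were left out, there remained 11487 of the 11721 barcodes in the Cebpa fl/fl library, and 13238 of 13373 in that of the Cebpa ΔSftpc mice, with 68802017 and 64452208 UMIs and medians of 4835 and 2607 UMIs per barcode. Barcodes were assigned to 28 cell types (gates) by raw counts of marker genes, none of them a CC chemokine, and every gate needs UMIs of 3 different markers. No gate assigned 7.49% and 13.1% of barcodes, and 16.6% and 19.8% passed 2 or more gates and were given to the gate with more markers. The libraries differed in makeup: the 14 immune gates held 153 barcodes (1.33%) in Cebpa fl/fl mice, compared with 2711 (20.5%) in Cebpa ΔSftpc mice, and Ptprc (CD45) was at 16.2 and 369 CPM, the UMIs of a gene in every 1000000 UMIs. The methods of the study describe whole-lung suspensions, the labels name a sorting protocol, and which cells were kept by it is not given in the sources used here, so that a difference in the lung and one in the cells loaded cannot be told apart. In the AT2 gate (496 and 382 barcodes) Cebpa was at 153 CPM in the Cebpa fl/fl library and at 111 CPM in that of the Cebpa ΔSftpc mice (log2 ratio -0.45, -0.67 to -0.24). That gate had a median of 20516 UMIs per barcode in the first and 1522 in the second library. The 2 libraries shared 45 barcode sequences. The cDC2 gate of the Cebpa ΔSftpc library had Jchain, Igkc and Ighm as its leading genes, of which 30874 of 30951 UMIs were in 1 barcode, so its values are also given without that barcode.

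In the whole libraries, 8 of the 10 CC chemokines were 2-fold or more higher in the Cebpa ΔSftpc library, where 9.52% of the 16271 genes with at least 50 UMIs over both libraries were. None was 2-fold or more lower, against 10.0% of these genes. The median log2 ratio was 2.72 over the 10 chemokines and -0.08 over all these genes. Ccl6 and Ccl17 stood furthest apart. Ccl6 had 395 UMIs (5.74 CPM, 95% interval 5.19 to 6.34) in the Cebpa fl/fl and 25252 (392 CPM, 387 to 397) in the Cebpa ΔSftpc library, 68.2-fold. Ccl17 had 8 UMIs (0.116 CPM) and 1068 (16.6 CPM), 143-fold with a log2 ratio of 7.15 (6.17 to 8.37). These intervals are exact and cover counting error only, not the spread between mice.

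The other T cell and monocyte attractants were next. Ccl9 went from 220 UMIs (3.2 CPM) to 2628 (40.8 CPM), 12.8-fold, and Ccl5 from 2464 (35.8 CPM) to 21248 (330 CPM), 9.21-fold. Ccl3 was at 722 UMIs (10.5 CPM) against 4724 (73.3 CPM), 6.98-fold, and Ccl4 at 1286 (18.7 CPM) against 7524 (117 CPM), 6.25-fold. Ccl22 and Ccl2, with few counts in the Cebpa fl/fl library, were 5.54-fold and 3.64-fold higher in the Cebpa ΔSftpc library. Ccl22 had 42 and 218 UMIs, and Ccl2 had 234 and 797. The 2 exceptions were both from the Ccl2 group of genes on chromosome 11. Ccl11 had 1897 UMIs (27.6 CPM, 26.3 to 28.8) in the Cebpa fl/fl and 987 (15.3 CPM, 14.4 to 16.3) in the Cebpa ΔSftpc library (log2 ratio -0.85, -0.96 to -0.74). Ccl7 had 214 and 184 UMIs, with a log2 ratio of -0.12 whose interval spans 0 (-0.42 to 0.17).

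**Figure D1:**
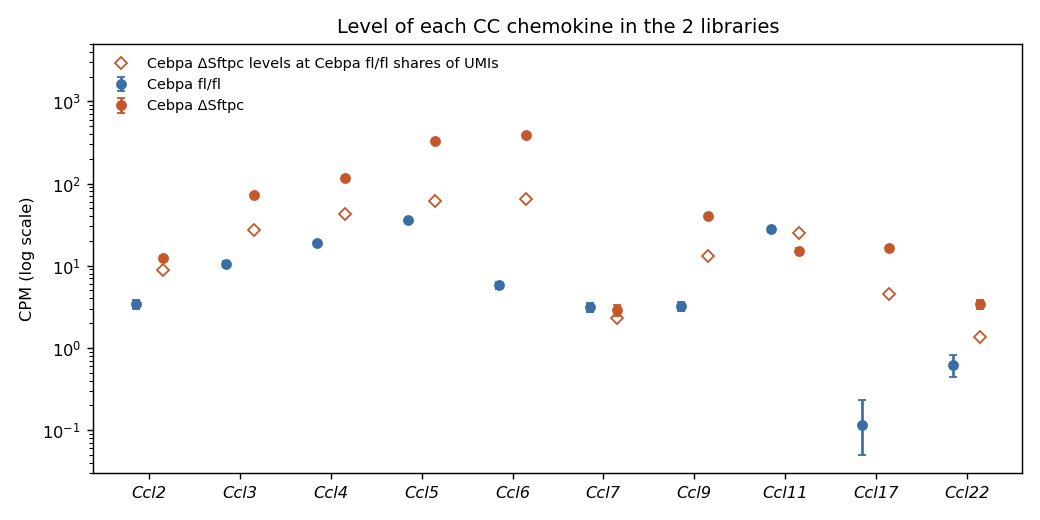
CPM (log axis) of the 10 CC chemokines in the Cebpa fl/fl (blue) and the Cebpa ΔSftpc (orange) library, with 95% counting intervals that are often smaller than the point. Open diamonds are the Cebpa ΔSftpc levels within gates weighted by the Cebpa fl/fl library's shares of UMIs; for Ccl6 the diamond stands at 65 CPM, between 5.74 and 392.

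How much of these differences went with the makeup of the libraries was described by weighting each gate's level in the Cebpa ΔSftpc library by that gate's share of UMIs in the Cebpa fl/fl library. Ccl5 then came to 61.8 CPM in place of 330, 1.73-fold the Cebpa fl/fl level in place of 9.21-fold. Ccl6 came to 65 CPM in place of 392, still 11.3-fold, and Ccl9 to 13.2 CPM in place of 40.8, still 4.12-fold. Ccl17 kept the largest weighted fold of the list, 38.9, but over a Cebpa fl/fl level of only 0.116 CPM. The cDC2 gate weighs little in that value, with 1 Cebpa fl/fl barcode. The platelet or megakaryocyte gate is also in it, with 106 Cebpa ΔSftpc UMIs, 63 of them in 1 barcode. The weighted fold of Ccl17 is therefore not read as a rise within DC. For Ccl3 and Ccl4 the weighted folds were 2.59 and 2.25, for Ccl2 2.61 and for Ccl22 2.25. These weighted values still hold the counts that endothelial and other non-producing gates carried in the Cebpa ΔSftpc library, which are given below. Ccl11 moved the other way, to 24.8 CPM from 15.3, 0.9 of the Cebpa fl/fl level.

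Chemokine counts were concentrated in few barcodes. In the Cebpa fl/fl library 4 barcodes held at least 50% of all Ccl3 UMIs, 4 those of Ccl4, 4 those of Ccl5 and 2 those of Ccl2. In the Cebpa ΔSftpc library the same part was held by 28 barcodes for Ccl3, 26 for Ccl4, 54 for Ccl5, 167 for Ccl6 and 6 for Ccl17. Ccl11 was the most evenly spread in the Cebpa fl/fl library, with 60 barcodes. Among gates of at least 10 barcodes, 9 of the 10 chemokines were highest in an immune gate in each library, and Ccl11 was highest in adventitial fibroblasts in both. In the Cebpa fl/fl library this rested on 1 barcode for Ccl2 and Ccl7 (12 and 17 UMIs in the basophil or mast gate) and on 1 UMI for Ccl17. Fewer immune gates could be read in the Cebpa fl/fl library, where 6 of the 14 had 10 barcodes or more, against 13 in the Cebpa ΔSftpc library.

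**Figure D2:**
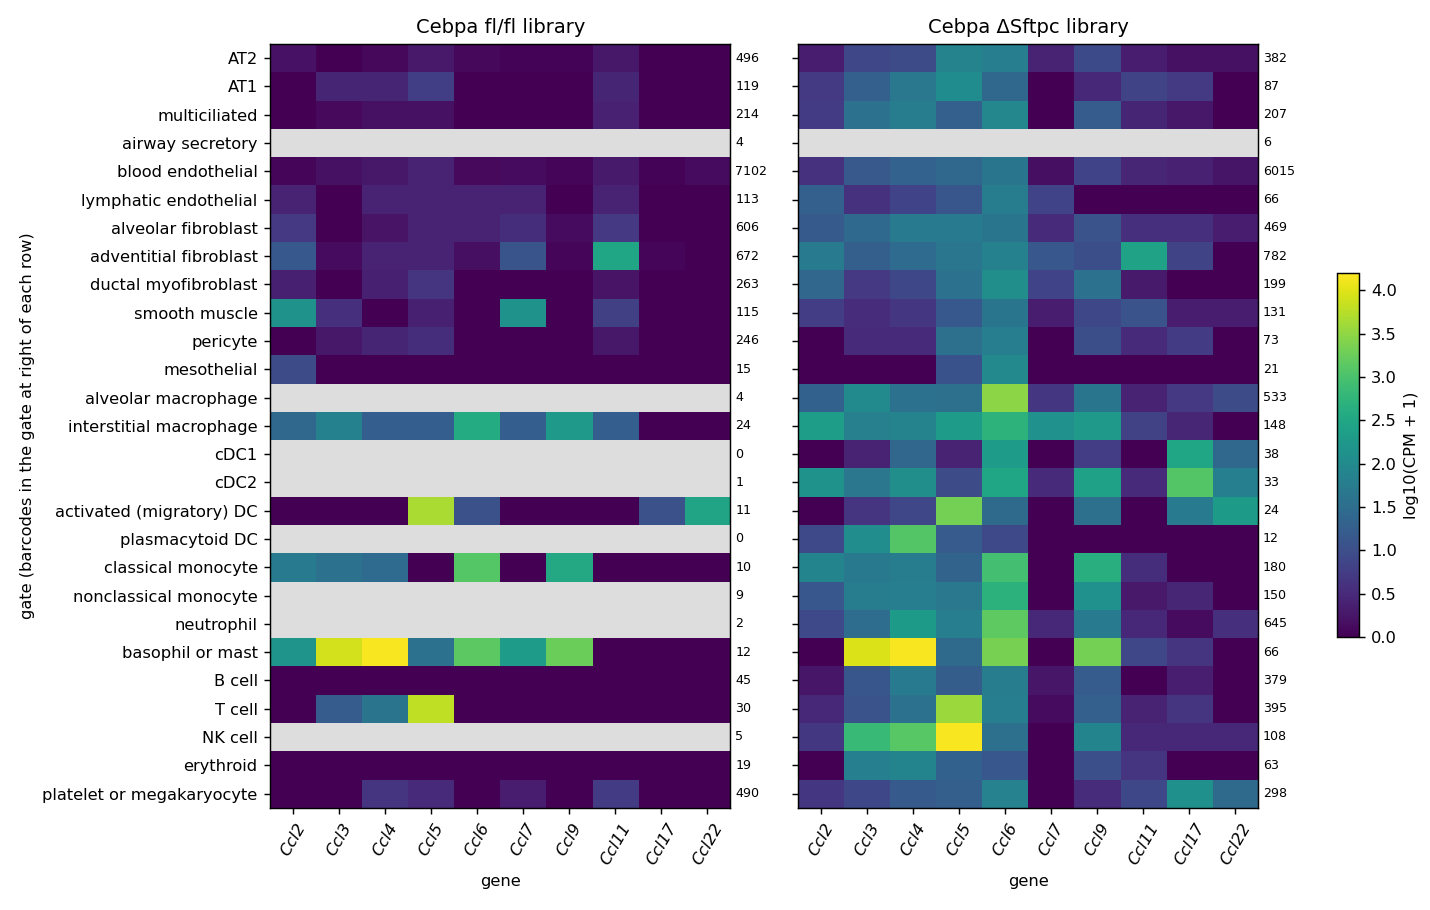
Level of each CC chemokine, log10(CPM + 1), in the gates of the 2 libraries, with the number of barcodes at the right of each row; grey rows have fewer than 10 barcodes, and the plasma cell gate, with none, is left out. In both libraries Ccl3, Ccl4 and Ccl9 are highest in the basophil or mast gate, Ccl22 in activated DC and Ccl11 in adventitial fibroblasts.

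Ccl3 and Ccl4, the macrophage inflammatory proteins, had most of their UMIs in the basophil or mast gate in both libraries. This gate, defined by Mcpt8, Ms4a2, Fcer1a, Cd200r3, Cpa3 and Cyp11a1, held 12 barcodes (0.104%) in Cebpa fl/fl mice, compared with 66 (0.499%) in Cebpa ΔSftpc mice. It held 672 of the 722 Ccl3 UMIs of the Cebpa fl/fl library (93.1%, 95% interval 91 to 94.8%) and 2722 of the 4724 of the Cebpa ΔSftpc library (57.6%, 56.2 to 59%). For Ccl4 the counts were 1177 (91.5%) and 4177 (55.5%). Thus 0.118% of all UMIs of the Cebpa fl/fl library carried over 90% of these transcripts. Per barcode, Ccl3 ranged from 0 to 111 UMIs with a median of 63 in the Cebpa fl/fl library, and from 1 to 191 with a median of 29 in the Cebpa ΔSftpc library, so the ranges overlapped.

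Within the gate, the level of both genes was alike in the libraries. Ccl3 was at 8275 CPM (7661 to 8925) and 9435 CPM (9084 to 9797), a log2 ratio of 0.19 (0.07 to 0.31). Ccl4 was at 14493 CPM (13677 to 15346) and 14479 CPM (14043 to 14925), a log2 ratio of 0.00 (-0.10 to 0.09). Counted per barcode in place of per UMI the ratios were -0.44 and -0.63, since barcodes of the gate had medians of 7031 and 4476 UMIs. The other two myeloid chemokines were also high there. Ccl9 was at 1798 and 2062 CPM (log2 ratio 0.20, -0.07 to 0.47) and Ccl6 at 1379 and 2177 CPM (0.66, 0.37 to 0.96). Of the 4 chemokines with at least 50 UMIs in the gate none was 2-fold or more higher or lower, where 3.60% and 2.50% of the 1082 genes with as many UMIs were.

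The counts behind these levels came from nearly every barcode of the gate. Ccl3 and Ccl4 were found together in 11 of 12 and 66 of 66 barcodes, with 1.75 and 1.53 Ccl4 UMIs per Ccl3 UMI. The exception in the Cebpa fl/fl library was 1 barcode with UMIs of the chymases and tryptase of connective tissue mast cells (103 of Mcpt4, 32 of Cma1 and 18 of Tpsb2), no Mcpt8, and no Ccl3, Ccl4, Ccl6 or Ccl9, but 12 UMIs of Ccl2 and 17 of Ccl7. This barcode was singled out after its values were seen. Mcpt4, Cma1 and Tpsb2 had no UMI in the 66 Cebpa ΔSftpc barcodes, whereas Mcpt8, a basophil protease, had 328 there and 60 in the 12 Cebpa fl/fl barcodes. Il6, a cytokine that activated basophils can release, had 89 and 512 UMIs in the gate. After thinning each barcode to 1000 UMIs, a Ccl3 UMI was found in 91.7% and 98.4% of the barcodes deep enough (12 and 63), against 0.0728% and 1.46% of blood endothelial barcodes, which should not make it.

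Outside this gate Ccl3 and Ccl4 had different sources. Among Cebpa ΔSftpc barcodes, alveolar macrophages, the phagocytes of the airspaces, held 485 Ccl3 and 169 Ccl4 UMIs, 0.348 Ccl4 per Ccl3, whereas neutrophils held 97 Ccl3 and 623 Ccl4 UMIs, 6.42 Ccl4 per Ccl3. With all barcodes, NK cells were at 683 CPM of Ccl3 and 1285 CPM of Ccl4, second to the basophil gate in both. Of their UMIs, 254 of 354 and 366 of 666 were in 1 barcode of 16551 UMIs, which passed 2 gates, and without it the NK cell gate was at 199 and 598 CPM. The plasmacytoid DC gate (12 barcodes), which makes type I interferon, followed for Ccl4 with 156 UMIs in 6 barcodes (1175 CPM, 998 to 1374), an interval that overlaps that of the NK cells with all barcodes. Without the 1 barcode the NK cells (532 to 670 CPM) were below plasmacytoid DC for Ccl4. Alveolar macrophages and neutrophils had 4 and 2 barcodes in the Cebpa fl/fl library, with no UMI of either gene, and no ratio is given.

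Ccl5 (RANTES), which cytotoxic lymphocytes store for release, was mostly a lymphocyte transcript in both libraries. In the Cebpa fl/fl library the T cell share given next fell to 41.7% without the barcode richest in Ccl5. The T cell gate held 1563 of 2464 Ccl5 UMIs (63.4%) in the Cebpa fl/fl and 10883 of 21248 (51.2%) in the Cebpa ΔSftpc library, and the NK cell gate 322 (13.1%) and 7370 (34.7%). NK cells were the more uniform source, with Ccl5 in 5 of 5 and 105 of 108 barcodes (97.2%) and levels of 10282 and 14224 CPM. Of the T cell barcodes 40% and 41.3% had a UMI, against 0.789% and 7.58% of blood endothelial barcodes. Median depths were 7955 and 7755 UMIs in the T cell and 4796 and 4018 in the blood endothelial gate.

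T cells with a UMI of Cd8a or Cd8b1, which mark cytotoxic T cells, carried more Ccl5 than those without. Among Cebpa ΔSftpc T cells 143 such barcodes were at 4993 CPM (4874 to 5113) and the 252 others at 2528 CPM (2452 to 2606). Among those of the Cebpa fl/fl library 10 barcodes were at 14659 CPM and the 20 others at 2091 CPM. That first value rested on 1 barcode of 9775 UMIs, which alone had 919 of the 1563 Ccl5 UMIs of the T cell gate. Over the whole gate Ccl5 was at 6270 CPM in the Cebpa fl/fl and 3637 CPM in the Cebpa ΔSftpc library (log2 ratio -0.79, -0.86 to -0.71). Without the barcode richest in Ccl5 of each library the levels were 2689 and 3430 CPM, and the ratio turned to 0.35 (0.24 to 0.47), so its direction was decided by 1 barcode. Of the 4 chemokines with at least 50 UMIs in the T cell gate only Ccl6 was 2-fold or more higher in the Cebpa ΔSftpc library, against 8.20% of the 6803 genes.

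Activated (migratory) DC, defined by Fscn1, Il4i1, Cacnb3 and other genes, were a further source of Ccl5. They held 467 UMIs in 11 barcodes (19% of Ccl5 UMIs, 4603 CPM) and 605 in 24 barcodes (2.85%, 2095 CPM). The log2 ratio was -1.14 (-1.31 to -0.96). Only 6 and 9 of these barcodes had a Ccl5 UMI. With 1 marker more, 5 and 9 barcodes stayed in the gate, and the log2 ratio was -1.28 (-1.46 to -1.11). Interstitial macrophages of the Cebpa ΔSftpc library came next at 200 CPM (164 to 241), far below the DC. They were followed by the AT1 and AT2 gates at 111 CPM (83.1 to 144) and 74.5 CPM (62.7 to 87.8), where blood endothelial barcodes were at 24.5 CPM. Neutrophils (61.8 CPM, 53.4 to 71, with 56.3% of the UMIs in 1 barcode) and alveolar fibroblasts (55.4 CPM, 45.3 to 67.1) came after. Their intervals overlap that of the AT2 gate, and ungated barcodes were at 138 CPM. Whether the cells of these gates made Ccl5 was not tested.

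**Figure D3:**
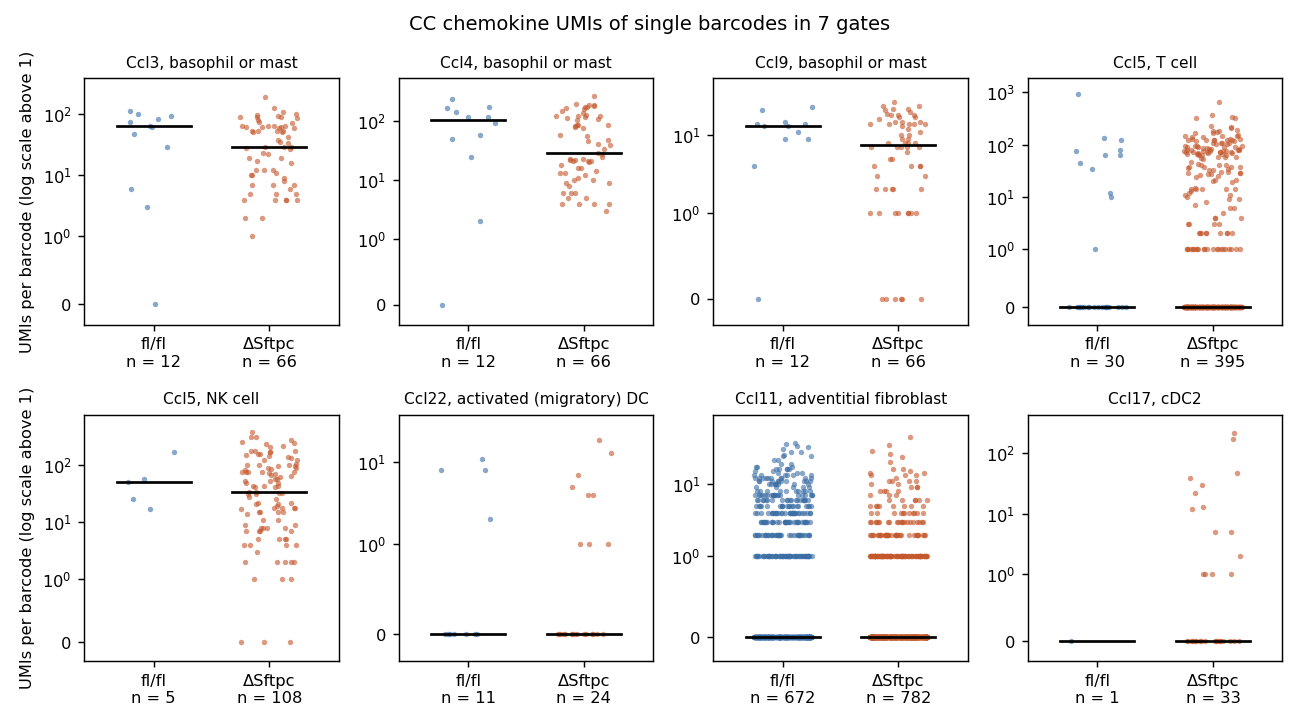
UMIs per barcode (log axis above 1) of 7 CC chemokines in 6 gates of the Cebpa fl/fl (blue) and Cebpa ΔSftpc (orange) libraries. Each point is a barcode, the bar is the median, and n counts barcodes, not mice. Ccl3 and Ccl4 were found in nearly all basophil or mast barcodes, Ccl5 in nearly all NK cells but in a part of the T cells, and 1 Cebpa fl/fl T cell stands at 919 UMIs.

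Ccl6 was the most abundant chemokine of the list in the Cebpa ΔSftpc library and was found in macrophages, monocytes, neutrophils and the basophil or mast gate. Alveolar macrophages held 14101 of its 25252 UMIs (55.8%) and neutrophils 4659 (18.5%). The order of levels there was alveolar macrophages (2997 CPM, 2948 to 3047), the basophil or mast gate (2177 CPM), neutrophils (1460 CPM), classical monocytes (876 CPM), interstitial macrophages (513 CPM, 454 to 576) and nonclassical monocytes (502 CPM, 461 to 546). Only the last 2 of these neighbours had overlapping intervals. A Ccl6 UMI was found in 500 of 533 alveolar macrophage barcodes (93.8%) and 516 of 645 neutrophils (80%), against 15% of blood endothelial barcodes of that library.

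In the Cebpa fl/fl library the leading gates of Ccl6 were classical monocytes with 133 of 395 UMIs (33.7%, 10 barcodes), the basophil or mast gate with 112 (28.4%) and interstitial macrophages with 45 (11.4%). The 4 alveolar macrophage barcodes, of 2792 UMIs in all, had 5. Within classical monocytes, interstitial macrophages and the basophil or mast gate, Ccl6 levels were closer than the 68.2-fold difference of the libraries, whereas they differed 154-fold in blood endothelial barcodes (0.267 and 41.2 CPM) and 133-fold in adventitial fibroblasts (3 and 204 UMIs). Classical monocytes were at 1238 and 876 CPM, a log2 ratio of -0.50 (-0.76 to -0.23). Interstitial macrophages were at 384 and 513 CPM, with a ratio of 0.42 whose interval spans 0 (-0.04 to 0.90).

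Ccl9 (MIP-1γ), encoded 15 kb from Ccl6, shared its gates but not its order. Among Cebpa ΔSftpc barcodes, classical monocytes, the Ly6c2+ cells that leave the blood for inflamed tissue, held the largest share with 669 of 2628 UMIs (25.5%), and the basophil or mast gate had 595 (22.6%). In the Cebpa fl/fl library the basophil or mast gate held 146 of 220 UMIs (66.4%) and classical monocytes 37 (16.8%). Its levels within classical monocytes were 344 and 429 CPM (log2 ratio 0.32, -0.16 to 0.84) and within interstitial macrophages 179 and 185 CPM (0.04, -0.64 to 0.80). In the Cebpa ΔSftpc library Ccl9 was far below Ccl6 in the cells of the airspace and in neutrophils. The same held in the cDC1 gate of DC, which had 133 Ccl6 and 3 Ccl9 UMIs. In Cebpa ΔSftpc alveolar macrophages there were 0.0138 Ccl9 UMIs per Ccl6 UMI and in neutrophils 0.0358, whereas classical monocytes had 0.49 and the basophil or mast gate 0.947. In the Cebpa fl/fl library the basophil or mast gate had 1.3 and classical monocytes 0.278.

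In the Cebpa ΔSftpc library Ccl17 and Ccl22, the Ccr4 ligands, were each highest in a DC gate, a different one for each gene. Among Cebpa ΔSftpc barcodes, cDC2, the conventional DC that present antigen to CD4 T cells, held 562 of 1068 Ccl17 UMIs (52.6%) and were at 1212 CPM (1114 to 1317). Without the barcode rich in immunoglobulin, which had no Ccl17, the level was 1384 CPM. The Ccl17 UMIs were in 15 of 33 barcodes, of which 8 had 10 or more. The 2 richest, with 212 and 171, each passed 2 gates. They had UMIs of the cDC2 genes Mgl2 and Cd209a but none of Flt3, another marker of the gate. Without the barcode of 212 UMIs the gate was at 799 CPM. With barcodes that pass 2 gates left out, 16 of the 33 remained. cDC1, which cross-present antigen, followed with 188 UMIs in 20 of 38 barcodes (294 CPM, 254 to 340). The Cebpa fl/fl library had 0 cDC1 barcodes and 1 cDC2 barcode, which held no Ccl17, and of its 8 Ccl17 UMIs 4 were in blood endothelial and 2 in ungated barcodes.

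Ccl22 led in activated DC in both libraries, with 29 of 42 UMIs (69%) in 4 of 11 barcodes and 55 of 218 (25.2%) in 9 of 24. Its level there was 286 CPM (191 to 411) in the Cebpa fl/fl and 190 CPM (143 to 248) in the Cebpa ΔSftpc library, and the interval of the log2 ratio of -0.59 spans 0 (-1.26 to 0.12). With 1 marker more, which left 5 and 9 barcodes, the ratio was -0.72 and its interval did not span 0 (-1.40 to -0.02). Activated DC had 3.44 Ccl22 UMIs per Ccl17 UMI in the Cebpa ΔSftpc library, and cDC2 and cDC1 had 0.0534 and 0.0851. Part of both genes was in the platelet or megakaryocyte gate of that library, with 106 Ccl17 and 23 Ccl22 UMIs. Of these, 63 and 21 were in 1 barcode of 20140 UMIs, in a gate with a median of 1700, that also had UMIs of Pf4 (55) and of the cDC2 genes Mgl2 (22) and Cd209a (11). Alveolar macrophages had 39 Ccl22 UMIs in 36 of 533 barcodes, none with more than 2.

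Ccl11, the eosinophil attractant, was a transcript of adventitial fibroblasts, cells around vessels and airways that were gated by Pi16, Dcn and other genes. They held 1817 of 1897 UMIs (95.8%, 94.8 to 96.6%) in the Cebpa fl/fl and 785 of 987 (79.5%, 76.9 to 82%) in the Cebpa ΔSftpc library. Levels in the gate were 309 CPM (295 to 324) and 261 CPM (243 to 280), a log2 ratio of -0.25 (-0.37 to -0.12). Many of its barcodes also passed another gate, and 184 and 433 remained without these. Over those the log2 ratio was -0.14, with an interval that spans 0 (-0.36 to 0.09). The gate had 672 and 782 barcodes, but medians of 8424 and 1783 UMIs, and it held 8.53% and 4.67% of all UMIs, so that per barcode the log2 ratio was -1.43. A Ccl11 UMI was found in 44.6% and 25.4% of its barcodes, and in 20.5% and 16.3% of those deep enough after thinning to 1000 UMIs. A further 64 Ccl11 UMIs of the Cebpa ΔSftpc library were in 1 ungated barcode of 20734 UMIs.

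By share of UMIs, Ccl2 (MCP-1) and its neighbour Ccl7 (MCP-3) were mostly in mesenchymal gates in the Cebpa fl/fl library. In the Cebpa ΔSftpc library they were mostly in immune gates. These shares also depend on the number of immune barcodes, 153 and 2711, so they do not show a change of source. In the Cebpa fl/fl library the 6 mesenchymal gates held 84.6% of Ccl2 and 83.6% of Ccl7 UMIs, against 27.2% and 27.2% in the Cebpa ΔSftpc library, where the 14 immune gates held 56% and 53.3%. The Cebpa fl/fl counts came from very few barcodes. One smooth muscle barcode of 6192 UMIs had 104 UMIs of Ccl2 and 104 of Ccl7, which are 44.4% and 48.6% of all, and the other 114 barcodes of that gate had none. A further 59 Ccl2 UMIs were in 1 adventitial fibroblast barcode.

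In the Cebpa ΔSftpc library Ccl2 was highest in interstitial macrophages, the C1q+ macrophages of the tissue, at 216 CPM (179 to 259). Of the 118 Ccl2 UMIs there 39 were in 1 barcode, and without it the gate was at 147 CPM (116 to 183). With all barcodes, cDC2 followed at 142 CPM (110 to 181), then classical monocytes at 78.3 CPM and adventitial fibroblasts at 54.2 CPM. The interval of cDC2 overlapped that of the interstitial macrophages. Of the 66 Ccl2 UMIs in cDC2, 24 were in 1 barcode that passed 2 gates. In the Cebpa fl/fl library classical monocytes were at 55.9 CPM (20.5 to 122, 6 UMIs) and interstitial macrophages at 25.6 CPM (5.28 to 74.9, 3 UMIs). In adventitial fibroblasts 114 of the 163 Ccl2 UMIs were in 1 barcode, and the level without it was 16.4 CPM (12.1 to 21.6). The gate was at 13.5 CPM in the Cebpa fl/fl library, and without the barcode richest in Ccl2 at 3.41 CPM. Ccl7 was highest in interstitial macrophages too, with 71 of 184 UMIs (38.6%, 130 CPM), of which 39 were in 1 barcode. In adventitial fibroblasts it was at 11.4 and 13 CPM, a log2 ratio of 0.18 whose interval spans 0 (-0.42 to 0.77). Ccl2 and Ccl7 shared some of their barcodes. Of the adventitial barcodes with either gene 4 had both, 6 Ccl2 alone and 13 Ccl7 alone in the Cebpa fl/fl library, and 3, 12 and 11 in the Cebpa ΔSftpc library.

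Of the 7 chemokines with at least 50 UMIs in adventitial fibroblasts, Ccl2, Ccl3, Ccl4, Ccl5 and Ccl6 were 2-fold or more higher in the Cebpa ΔSftpc library, where 3.87% of 10760 genes were, and none was 2-fold or more lower, against 1.12%. The same held in blood endothelial barcodes, which should make little of these genes. There 6 of 7 chemokines were 2-fold or more higher, against 5.23% of 13394 genes. Ccl6 was at 0.267 CPM in the Cebpa fl/fl and 41.2 CPM in the Cebpa ΔSftpc library, Ccl5 at 1.5 and 24.5, Ccl4 at 0.855 and 19.6, and Ccl3 at 0.561 and 13.8. The leukocyte gene Ptprc moved with them in this gate, from 1.04 to 37.8 CPM. A Ccl6 UMI was in 0.141% and 15% of endothelial barcodes, and in 0.0291% and 5.57% of those deep enough after thinning. The part of RNA free in the suspension, of cells that share a barcode, and of transcription in these cells was not tested, and levels near these values in any gate are not read here as production. Subtracting the blood endothelial CPM of the same library left all 14 within-gate ratios given above inside their intervals. The levels of those gates lie well above the endothelial one, so the subtraction could change their ratios little and does not test the part of free RNA.

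**Figure D4:**
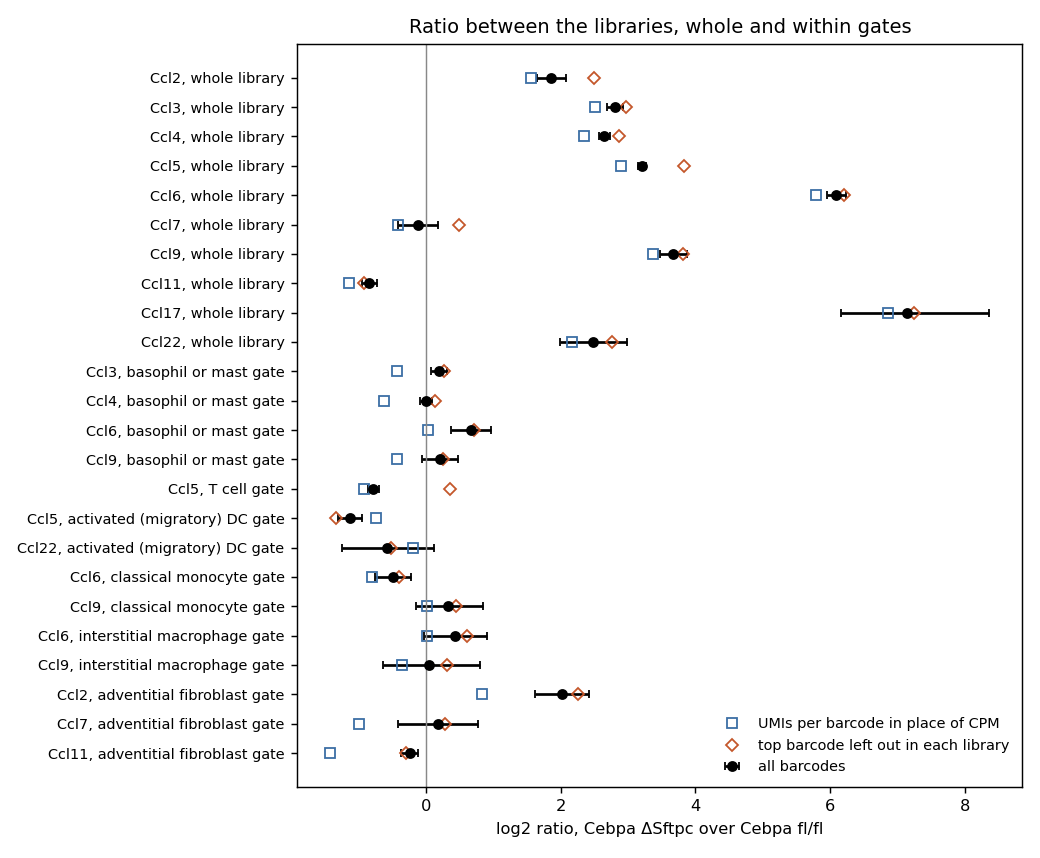
Log2 ratio of Cebpa ΔSftpc over Cebpa fl/fl CPM for the 10 chemokines in the whole library and for 14 pairs of a chemokine and a gate, with 95% counting intervals (black), per barcode in place of per UMI (blue squares) and without the barcode richest in the gene in each library (orange diamonds). The 14 pairs are a selection of gates that carry much of the gene, and lie between -1.14 and 2.01. Some pairs not drawn lie outside this range, such as Ccl2 in smooth muscle (-4.82) and Ccl5 in AT2 (6.30) and blood endothelial barcodes (4.03). Others not drawn lie inside it, such as Ccl5 in lymphatic endothelial barcodes (1.31). The ratio of Ccl5 in T cells moves from -0.79 to 0.35 when 1 barcode per library is left out.

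Among receptors of these chemokines, Ccr1 and Ccr2 were 2-fold or more higher in the whole Cebpa ΔSftpc library, and the atypical receptors Ackr1, Ackr2 and Ccrl2 were within 2-fold (log2 ratios of 0.13, 0.19 and -0.16). Ccr1, the receptor of Ccl3, Ccl5, Ccl6 and Ccl9, had 30 and 2105 UMIs, 1229 of the latter in neutrophils (385 CPM) and 458 in alveolar macrophages (97.4 CPM). The basophil or mast gate was at 222 and 229 CPM. Ccr2, the receptor of Ccl2 and Ccl7, had 207 and 4139 UMIs and was highest in classical monocytes, at 968 CPM and 1051 CPM (log2 ratio 0.12, -0.17 to 0.42).

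Ccr3 and Ccr4 were near the limit of detection. Ccr4, the receptor of Ccl17 and Ccl22, had 3 UMIs in the Cebpa fl/fl and 15 in the Cebpa ΔSftpc library, 3 and 12 of them in T cells. Ccr3, the receptor of Ccl11 on eosinophils, had 2 and 16 UMIs. Of the latter 6 were in neutrophils, 3 in blood endothelial barcodes and 3 in the basophil or mast gate. The atypical receptors had another distribution. Ackr2, which takes up inflammatory CC chemokines without signalling, was an endothelial transcript, at 77.8 and 97.7 CPM in blood endothelial barcodes (log2 ratio 0.33, 0.25 to 0.40). Ccrl2 was at 104 and 74.6 CPM there (-0.48, -0.56 to -0.41), and in the Cebpa ΔSftpc library also at 220 CPM in neutrophils. Ackr1, the chemokine receptor of venules, had 233 and 239 UMIs, of which 51.9% and 44.8% were ungated.

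Of the 11 other CC chemokines that were counted, 9 had counts, and their median log2 ratio was -0.02, against 2.72 over the members. Ccl1, Ccl12 and Ccl24, 3 of the 9, were 2-fold or more higher in the Cebpa ΔSftpc library, and Ccl19 was 2-fold or more lower. Among the 16271 genes with at least 50 UMIs, a limit that Ccl1 does not reach, 9.52% were higher and 10.0% lower. Ccl20 and Ccl26 had no UMI in either library. Ccl12, a Ccr2 ligand, had 13 and 138 UMIs, with all 13 and 87 of them (63%) in interstitial macrophages. Its level there was 111 and 159 CPM (log2 ratio 0.52, -0.33 to 1.49). Ccl24, an eotaxin, also led in interstitial macrophages, with 27 of 41 UMIs in the Cebpa ΔSftpc library. Ccl8 was at 350 and 145 CPM in that gate (log2 ratio -1.28, -1.84 to -0.69). Ccl1 had 0 UMIs and 10, which is 3.56-fold higher with the 0 set to 3 counts, a value that is not a lower limit. Of the 10, 7 were in T cells, in 2 barcodes, and 1 of these had 5. The homeostatic chemokines Ccl19 and Ccl21a, which guide Ccr7+ cells, had 1380 and 507, and 24983 and 13515 UMIs. Several genes of the files share these symbols, so the counts of Ccl19, Ccl21a and Ccl27a are uncertain.

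Across the 39 combinations of a gate and a library with at least 20 barcodes, levels of Ccl3 and Ccl4 were the most alike pair among the members (Pearson r of log2(CPM + 10) = 0.947). Ccl3 with Ccl9 (0.816), Ccl17 with Ccl22 (0.812), Ccl6 with Ccl9 (0.797), Ccl4 with Ccl9 (0.768) and Ccl2 with Ccl7 (0.754) followed. The points share libraries, free RNA and depth, so these values are descriptions. Of 14225 other genes with at least 50 UMIs in each library, those most like Ccl11 were Dio2 (0.954), Lsamp (0.947) and Ebf2 (0.946). For Ccl6 they included Nfam1 (0.903) and Tyrobp (0.894), an adaptor of myeloid and NK cell receptors. For Ccl5 they were Il2rb (0.874), Gm2682 (0.869) and Nkg7 (0.869), genes of cytotoxic lymphocytes in the case of Il2rb and Nkg7. For Ccl9 they were Lilrb4a (0.88), Itgam (0.875) and Fcgr3 (0.87). Osm, the gene of oncostatin M, was among the first 3 for both Ccl3 (0.831, with Btbd19 and Lilr4b) and Ccl4 (0.839, with Padi2 and Il18rap). Ccl17 was most like Adam23 (0.787), Frmd5 and Cd209a (0.762), and Ccl22 most like Strip2 (0.817), Cacna1s and Il12b (0.786). The values were lowest for Ccl2, with Abca9 (0.684) and Guca1a (0.653), and for Ccl7, with G530011O06Rik (0.649), Prune2 and Ebf4.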

How the data were processed

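The deposited values are raw UMI counts per gene and barcode, which the authors made with Cell Ranger against mm10 (version 6.1.1 in the submitters' processing notes, 5.0.0 in the header of the count files) and did not normalize. The files hold as many barcodes as the study counts after its filtering, but some are outside the filter its methods state (at least 200 genes, at most 20% mitochondrial counts), which was applied here. A barcode passed a gate with UMIs of at least 3 different markers and a marker share of its UMIs above the mean of both libraries; doublets were not removed. Counts were summed per gate and library and divided by all UMIs of the gate (CPM). Intervals are exact at 95% (Poisson for levels, Clopper-Pearson for shares, conditional for ratios), and sums under 3 counts were set to 3 in ratios. Ratios within gates were taken with at least 10 barcodes in both libraries. Gates are named for a gene where they hold at least 5% of its UMIs, and up to 3 like genes are named per member; some genes of the fixed lists and rules are not reported here. Alternatives were stricter filters, no filter, other denominators, a floor of 1 count, 1 marker more, and leaving out barcodes. The members, gates and lists were chosen with earlier results of these data known. The ratios were tested on simulated library sums drawn independently for each gene. These lack the concentration of counts in few barcodes seen here, so the coverage of the intervals under it was not tested. The gating was tested only on made barcodes that carried all markers of 1 gate. Positions are from GENCODE vM21 for GRCm38, matched by Ensembl identifier. Python 3.11.15, numpy, scipy, pandas, Biopython and matplotlib were used.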

Additional observations from a re-analysis of the deposited data

How the results depend on the processing

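Of 70 alternative values for the log2 ratios (Cebpa ΔSftpc over Cebpa fl/fl) of the 10 chemokines in the whole libraries, 69 kept the direction of the value in the report. The exception was Ccl7 without the barcode richest in the gene in each library, at 0.49. The stricter filter on barcodes, no filter, the limit of 1000 UMIs, the other denominator and the floor of 1 count left every whole-library ratio inside its counting interval. Per barcode, ratios were 1.56 for Ccl2, 2.51 for Ccl3, 2.34 for Ccl4, 2.90 for Ccl5, 5.79 for Ccl6, -0.42 for Ccl7, 3.37 for Ccl9 and -1.15 for Ccl11. Without the richest barcode, an alternative chosen after seeing the data, they were 2.49 for Ccl2, 2.97 for Ccl3, 2.86 for Ccl4 and 3.83 for Ccl5. Within gates 104 of 112 alternative values were counted as keeping the direction. This number includes all alternatives for Ccl4 in the basophil or mast gate, whose ratio of 0.00 has no direction to keep. Per barcode the basophil or mast gate gave -0.44 for Ccl3, -0.63 for Ccl4, 0.03 for Ccl6 and -0.43 for Ccl9; T cells -0.92 and activated DC -0.75 for Ccl5; classical monocytes -0.81 for Ccl6; and adventitial fibroblasts 0.83 for Ccl2, -1.0 for Ccl7 and -1.43 for Ccl11. Without the richest barcode Ccl5 in T cells turned to 0.35, Ccl4 in the basophil or mast gate was 0.13 and Ccl5 in activated DC -1.35. With barcodes that pass 2 gates left out, Ccl5 in T cells was -1.19 and Ccl2 in adventitial fibroblasts 5.36, and with 1 marker more the latter was 4.07. Per-barcode values follow the depth of the barcodes, which differs between the libraries; the cause of the other shifts was not tested. In adventitial fibroblasts of the Cebpa fl/fl library the share of Ccl2 went from 33.8% to 8.55% with 1 marker more and to 60.8% without the richest barcode, and that of Ccl7 from 31.3% to 60.9% without the richest barcode. No paired analysis was possible because each group has 1 library. Few counts limit what can be read of Ccl17, Ccl22, Ccr3 and Ccr4 in the Cebpa fl/fl library, with 8, 42, 2 and 3 UMIs.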
